A study of Mus musculus with 6 samples.

Results

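The genes described here are 10 messages of calcium cycling at the cardiac sarcoplasmic reticulum: Ryr2, Trdn, Jph2, Casq2, Hrc, Cacna1c, Atp2a2, Pln, Slc8a1 and Dhrs7c. They are matched by symbol, from a list drawn up with earlier results of these data known, and make up 10 of the 25361 genes listed. All 10 had enough counts to be tested. The libraries are 3 from hearts of ISO+L-NAME mice and 3 from hearts of untreated control mice, all wild-type C57BL/6N males given as 12 weeks old, with tissue taken after 6 weeks of treatment. L-NAME is an inhibitor of nitric oxide synthase, and the series title names the combination as a model of HFpEF, a form of heart failure. The labels state neither dose and route, nor the part of the heart that was taken, nor whether each library came from a different mouse.

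In each heartbeat, calcium enters the cardiomyocyte through L-type channels and opens ryanodine receptors, which release a much larger store of calcium from the sarcoplasmic reticulum. The calcium pump SERCA2 returns it to the store under the brake of phospholamban, and the sodium-calcium exchanger expels the amount that entered. Proteins in the lumen of the store buffer its calcium and tune the release channel, and changes in these steps are a classical theme of heart failure research.

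In ISO+L-NAME hearts, the message of the release channel rose, while those of a luminal calcium-binding protein and of a reticulum dehydrogenase fell, and the pump and its brake did not pass the test. The call of the release channel was lost in 3 fits that left out 1 library. Its count ratio to the pump overlapped between groups. Of the 10 genes, 3 passed edgeR's test at an adjusted p under 0.05, Ryr2 higher and Hrc and Dhrs7c lower, against 6.1% of all 8531 genes tested (3.41% higher and 2.68% lower). These messages are abundant, and among the 1548 tested genes at or above the mean level of the least abundant of them, 14.5% passed (6.33% higher and 8.14% lower). The values of the 2 groups did not overlap for 7 of the 10 genes, against 22.7% of all tested genes and 35.5% of those at or above that level. Of the 7, 4 were higher and 3 lower, against 11.4% and 11.3% of all tested genes. Because earlier results were known when the list was drawn up, these comparisons cannot test whether its genes change more often than others.

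Libraries held from 2217974 to 2637364 counts, each from the 3′ end of messages, so that a count does not grow with message length. Levels are given as CPM, counts scaled to a common library size after TMM normalization. Changes are log2 ratios, ISO+L-NAME over control, each with a standard error (SE) or a 95% interval. The mitochondrial genome gave 45.5% to 47.8% of counts in ISO+L-NAME libraries and 53.6% to 56.7% in control libraries. Of 18 cardiomyocyte markers, 2 were called higher and 6 lower, against 3.41% and 2.68% of all tested genes. Their summed level was 66259 to 70867 CPM in ISO+L-NAME hearts and 75719 to 81157 CPM in control hearts. Of 10 tested fibroblast markers, 6 were called higher and 0 lower, with sums of 1570 to 2059 CPM against 928 to 1321 CPM. Of 9 tested macrophage markers, 6 were called higher and 0 lower, with sums of 352 to 432 CPM against 162 to 210 CPM. Of 10 tested endothelial markers, 0 were called higher and 0 lower, with sums of 1048 to 1055 CPM against 1022 to 1213 CPM. Of 8 tested mural (smooth muscle and pericyte) markers, 1 was called higher and 1 lower, with sums of 545 to 619 CPM against 516 to 647 CPM. The part of these differences in the results below was not tested, and in whole tissue fewer cells of a type and less RNA per cell cannot be told apart. Of 12 skeletal muscle markers, 10 had at most 4 counts in any library, among them Ryr1 and Atp2a1 with at most 1. The other 2 were Cacna1s, with 6 to 11 counts in ISO+L-NAME libraries and 6 to 14 in control libraries, and Acta1, with 124 to 1067 counts against 316 to 432. Of 8 atrial markers, Sln, Myl7, Myl4 and Bmp10 had at most 4 counts in any library. Nppa had 409 to 950 counts in ISO+L-NAME libraries and 282 to 692 in control libraries, Kcna5 11 to 27 against 12 to 34, Myh7b 9 to 21 against 11 to 17, and Dkk3 5 to 22 against 0 to 4. The 1 skeletal and 3 atrial markers with enough counts to be tested were not called.

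The promoters of the release channel gene and of the luminal gene that moved the other way are printed because both genes were called, in opposite directions. Each is the 250 bases before the RefSeq start on build GRCm38.p6, 5′ to 3′ on the gene's strand: Ryr2 on the minus strand at chr13:12106946-12107195 and Hrc on the plus strand at chr7:45335019-45335268.
Ryr2: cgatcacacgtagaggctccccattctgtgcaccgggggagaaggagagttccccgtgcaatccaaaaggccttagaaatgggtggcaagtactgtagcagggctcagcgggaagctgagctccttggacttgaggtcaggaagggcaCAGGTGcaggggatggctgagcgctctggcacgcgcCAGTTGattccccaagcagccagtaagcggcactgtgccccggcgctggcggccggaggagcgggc
Hrc: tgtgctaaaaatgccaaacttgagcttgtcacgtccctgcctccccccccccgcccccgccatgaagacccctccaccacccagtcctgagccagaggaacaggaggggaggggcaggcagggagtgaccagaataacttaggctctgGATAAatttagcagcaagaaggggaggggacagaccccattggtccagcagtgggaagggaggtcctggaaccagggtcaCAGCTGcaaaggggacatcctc
Capitals mark matches, searched on both strands, to the E-box CANNTG and to GATAA, and no 2 matches overlap. The Ryr2 window held 2 E-boxes, and the Hrc window held 1 E-box and 1 GATAA. Of 32851 mouse promoter windows of this length, 66.2% held an E-box and 22.6% held GATAA, so neither match sets these promoters apart. The cAMP response half-site TGACG and TATAAA, held by 17.8% and 12.4% of windows, had no match in either. The promoter table held 7 of the 10 genes, without Atp2a2, Trdn and Dhrs7c.

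By level, the pump and its brake stood far above the rest. In ISO+L-NAME hearts the order from high to low was Atp2a2, Pln, Ryr2, Casq2, Trdn, Hrc, Slc8a1, Jph2, Cacna1c and Dhrs7c. The ranges of neighbours in this order overlapped only between Trdn and Hrc. In control hearts the order was Atp2a2, Pln, Ryr2, Hrc, Trdn, Casq2, Slc8a1, Jph2, Dhrs7c and Cacna1c, and ranges overlapped between Atp2a2 and Pln, between Trdn and Casq2, and between Slc8a1 and Jph2. Dhrs7c stood below Cacna1c in ISO+L-NAME hearts and above it in control hearts, without overlap in either group. Hrc and Casq2 likewise stood in opposite order in the 2 groups, again without overlap. The most abundant message exceeded the least abundant by 114 times in ISO+L-NAME hearts and 68.3 times in control hearts.

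**Figure D1:**
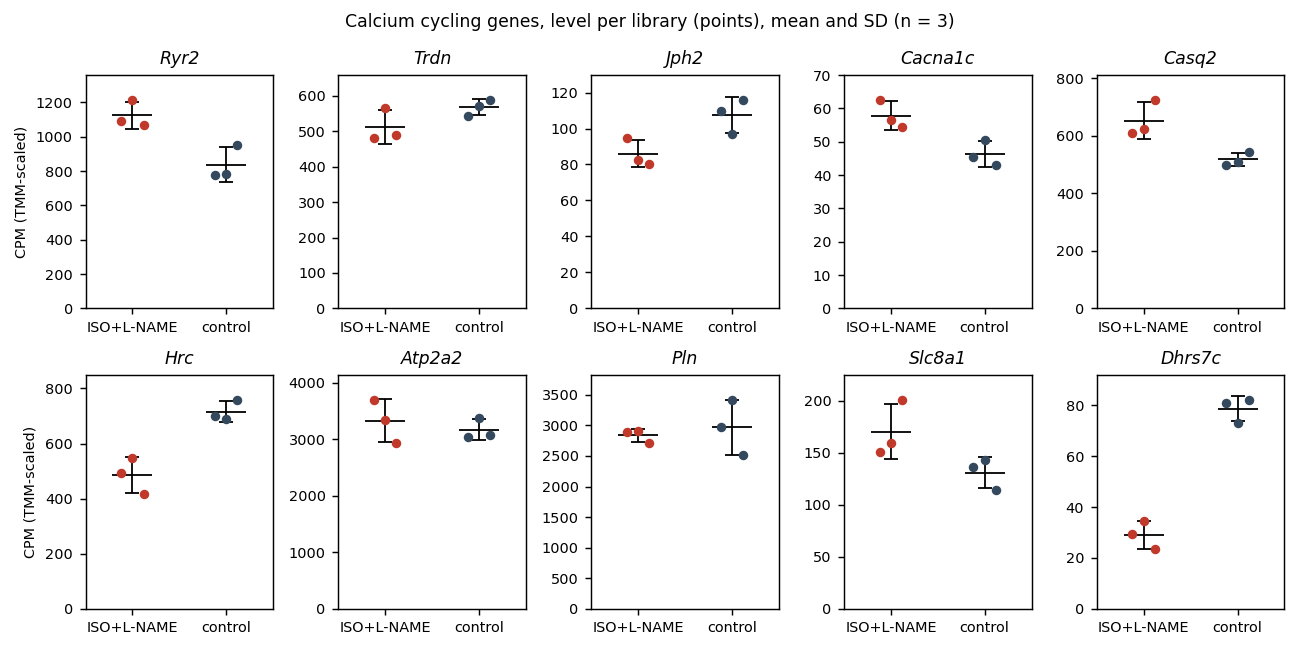
Level of each of the 10 genes in CPM (TMM-scaled, axes from 0) in the 3 ISO+L-NAME and 3 control libraries (points), with mean and SD. Dhrs7c was 23.5 to 34.3 CPM in ISO+L-NAME hearts and 73.0 to 82.2 CPM in control hearts, while the ranges of Atp2a2, Pln and Trdn overlapped.

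Ryr2 encodes the cardiac ryanodine receptor, the channel that releases calcium from the store (ENSMUSG00000021313, GRCm39 chromosome 13, 11567988 to 12121831). It had 1091, 1216 and 1071 CPM in ISO+L-NAME hearts, against 777, 783 and 953 CPM in control hearts. Every ISO+L-NAME library lay above every control library, and control 3 was the highest of its group. Ryr2 rose 1.34-fold (95% interval 1.16 to 1.56; log2 0.43 ± 0.10 SE, edgeR adjusted p = 0.0154). Leaving out control 1, control 2 or ISO+L-NAME 2 ended the call (edgeR adjusted p = 0.147, 0.0616 and 0.115), with log2 values of 0.37 in each of the 3 fits.

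The messages of the 2 junction proteins beside the channel did not pass the test. Trdn encodes triadin, which links the channel to calsequestrin in the lumen. It had 481, 566 and 488 CPM in ISO+L-NAME hearts, against 544, 570 and 589 CPM in control hearts, with overlapping ranges (log2 -0.15, 95% interval -0.36 to 0.06, edgeR adjusted p = 0.502). Jph2 encodes junctophilin 2, which holds the reticulum close to the invaginated surface membrane. It had 94.6, 82.7 and 80.5 CPM in ISO+L-NAME hearts, against 110, 96.8 and 116 CPM in control hearts. The groups did not overlap, but the difference did not pass the test (log2 -0.32, 95% interval -0.57 to -0.07, edgeR adjusted p = 0.141).

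The 2 luminal calcium-binding proteins went opposite ways in their values, and 1 of the differences passed. Hrc encodes the histidine-rich calcium-binding protein, which binds triadin and the pump (ENSMUSG00000038239, GRCm39 chromosome 7, 44984714 to 44988398). It had 493, 546 and 418 CPM in ISO+L-NAME hearts, against 701, 689 and 758 CPM in control hearts. All 3 ISO+L-NAME libraries were lower than any control library, with ISO+L-NAME 3 the lowest. Hrc fell to 0.679 of the control level (95% interval 0.581 to 0.793; log2 -0.56 ± 0.11 SE, edgeR adjusted p = 0.00224). It kept its call without any 1 library (edgeR adjusted p = 0.00320 to 0.0189).

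Casq2 encodes calsequestrin 2, the main calcium buffer of the cardiac store. It had 612, 622 and 726 CPM in ISO+L-NAME hearts, against 499, 510 and 544 CPM in control hearts. The groups did not overlap, and ISO+L-NAME 3 was the highest library. The difference missed the threshold (log2 0.33 ± 0.10 SE, 95% interval 0.12 to 0.55, edgeR adjusted p = 0.0565). It passed narrowly with DESeq2, limma-voom and a robust fit (adjusted p = 0.0474, 0.0465 and 0.0451), but not with a block for replicate number (edgeR adjusted p = 0.0530). With 1 library left out it passed only without control 3 (edgeR adjusted p = 0.0495), and otherwise had 0.0669 to 0.264. Without ISO+L-NAME 3 the log2 value was 0.25.

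Calcium entry and extrusion showed higher values that did not pass. Cacna1c encodes the pore of the L-type calcium channel and was the least abundant message in control hearts, with 190, 145 and 141 counts in ISO+L-NAME libraries and 100, 102 and 90 counts in control libraries. After scaling these were 62.6, 56.6 and 54.3 CPM in ISO+L-NAME hearts, against 45.3, 50.7 and 43.0 CPM in control hearts. The groups did not overlap (log2 0.32, 95% interval 0.05 to 0.60, edgeR adjusted p = 0.188).

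Slc8a1 encodes the sodium-calcium exchanger. It had 151, 159 and 201 CPM in ISO+L-NAME hearts, against 136, 143 and 114 CPM in control hearts. ISO+L-NAME 3 stood above the other 2 of its group, and the groups did not overlap (log2 0.38, 95% interval 0.11 to 0.64, edgeR adjusted p = 0.0895). Without ISO+L-NAME 3 the log2 value was 0.24.

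With TMM scaling, the calcium uptake messages showed no difference beyond the spread. Atp2a2 encodes the pump SERCA2 and was the most abundant of the 10. It had 3695, 3340 and 2935 CPM in ISO+L-NAME hearts, against 3046, 3380 and 3068 CPM in control hearts (log2 0.07, 95% interval -0.14 to 0.28, edgeR adjusted p = 0.789). ISO+L-NAME 1 was the highest library and ISO+L-NAME 3 the lowest, so the control range lay inside that of the ISO+L-NAME hearts. Pln encodes phospholamban, the small membrane protein that inhibits the pump until it is phosphorylated. It had 2885, 2913 and 2710 CPM in ISO+L-NAME hearts, against 2967, 3417 and 2518 CPM in control hearts (log2 -0.07, 95% interval -0.29 to 0.15, edgeR adjusted p = 0.823). Here the ISO+L-NAME hearts lay inside the control range.

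Dhrs7c showed the largest difference of the 10. It encodes a short-chain dehydrogenase/reductase of the sarcoplasmic reticulum of heart and skeletal muscle (ENSMUSG00000033044, GRCm39 chromosome 11, 67689013 to 67706828). It had 89, 88 and 61 counts in ISO+L-NAME libraries, against 179, 147 and 172 counts in control libraries. After scaling, ISO+L-NAME hearts had 29.3, 34.3 and 23.5 CPM and control hearts 81.1, 73.0 and 82.2 CPM, so the groups were far apart. Dhrs7c fell to 0.369 of the control level (95% interval 0.299 to 0.456; edgeR adjusted p = 5.04e-06). Its log2 value ranked 19 of 8531 from the lowest. The 5 genes of at least 5 CPM with the most similar profile over the 6 libraries, by root mean square difference of centred log2 CPM, were Actr3b, Auts2, B3galt2, Lgr6 and Mylk4 (0.12 to 0.22 on the log2 scale, of 7890 compared). The same measure placed Arhgef7, Hnrnpul1, Mtdh, Phf12 and 0610009B22Rik nearest to Atp2a2, at 0.04 to 0.05 on the log2 scale.

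**Figure D2:**
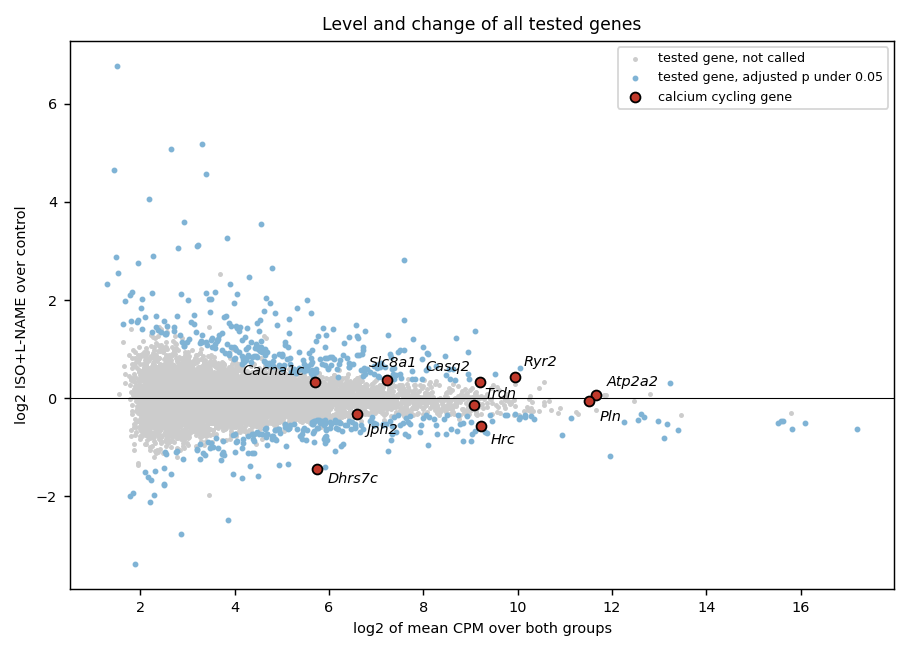
Mean level (x axis, log2 CPM) and change (y axis, log2 ISO+L-NAME over control) of the 8531 tested genes, with called genes in blue and the 10 calcium cycling genes in red. Dhrs7c lies at -1.44, whereas Atp2a2 and Pln lie near 0 at the right.

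Other annotated genes overlapped 5 of the 10 on the genome, and only 2 of these overlapping genes had counts. Cep85l, on the other strand from Pln, held 0.496% as many counts as Pln, and Dcp1b, on the other strand from Cacna1c, held 1.95% as many as Cacna1c. The genes differ widely in genomic span: Cacna1c, Ryr2, Trdn and Slc8a1 cover 610, 554, 396 and 365 kb, and Hrc covers 3.69 kb. Of these 4 genes over 300 kb, 3 had higher values without overlap, Trdn being the exception. Of all 193 tested nuclear genes of at least 300 kb, 20.2% were higher without overlap, against 11.4% of all tested genes, with a median log2 value of 0.04. This property was looked at after the values were seen, and its part in the results was not tested.

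The scaling moved every value by a similar amount and with it some calls. With total counts as the only scaling, the median log2 value of all tested genes was 0.29, and 1459 genes (17.1%) were called, 94.9% of them higher, against 56.0% of 520 calls with TMM. Under it, 5 of the 10 genes were called higher and 1 lower, against 16.2% and 0.867% of tested genes. Ryr2, Slc8a1, Casq2, Cacna1c and Atp2a2 were then higher, by 0.72, 0.68, 0.63, 0.63 and 0.38 on the log2 scale (edgeR adjusted p = 0.000172 to 0.0112). Hrc lost its call (log2 -0.26, edgeR adjusted p = 0.111), and Dhrs7c kept it (log2 -1.14, edgeR adjusted p = 6.68e-05). The values of Pln and Trdn changed sign, to 0.24 and 0.15, and passed under neither scaling.

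**Figure D3:**
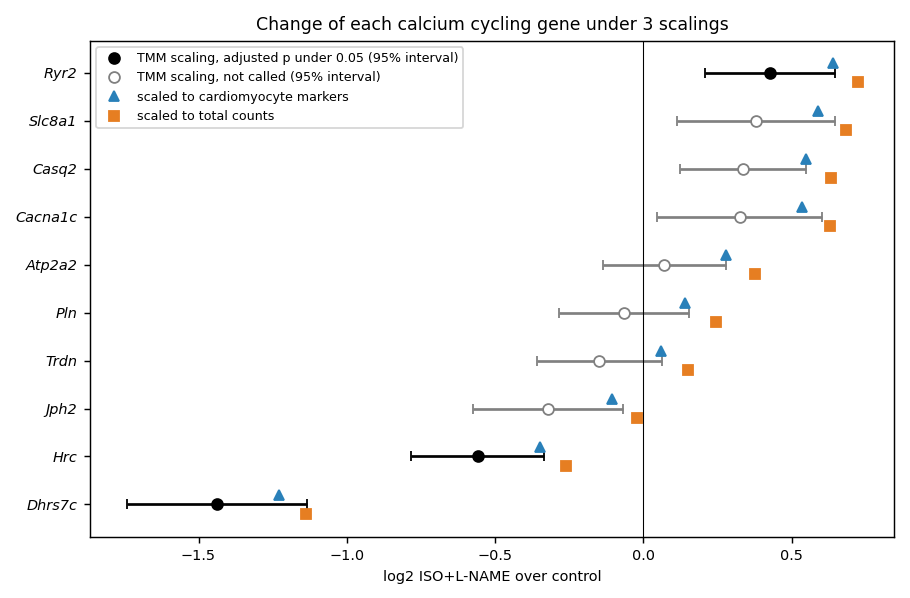
Log2 change of each gene, with circles for TMM scaling (95% interval, filled where the adjusted p is under 0.05), triangles for scaling to cardiomyocyte markers and squares for total counts. The order of the genes is the same under the 3 scalings, and the values of Pln and Trdn are negative with TMM and positive under the other 2 scalings.

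Relative to cardiomyocyte messages, more of the genes were called higher. With the summed counts of 18 cardiomyocyte markers as library sizes, Ryr2, Slc8a1, Casq2 and Cacna1c were called higher (log2 0.64, 0.59, 0.55 and 0.53; edgeR adjusted p = 0.000462, 0.00940, 0.00328 and 0.0209) and Dhrs7c lower (log2 -1.23, edgeR adjusted p = 7.04e-06). That is 4 of 10 higher and 1 of 10 lower, against 8.72% and 0.961% of tested genes (9.68% either way; median log2 value 0.20, with 90.1% of calls higher). Hrc then had an edgeR adjusted p = 0.0531 (log2 -0.35). Per 10000 marker counts, Ryr2 had 164, 172 and 162 counts in ISO+L-NAME hearts, against 98.9, 103 and 117 in control hearts. The corresponding counts of Hrc were 74.4, 77.1 and 63.2 in ISO+L-NAME hearts, against 89.2, 91.0 and 93.5 in control hearts. In all, 4 genes were higher and 2 lower per marker count without overlap, against 25.1% and 3.52% of tested genes (28.6% either way). Per count of Myh6, Tnnt2, Tnni3 and Actn2 alone, 5 were higher and 2 lower without overlap, with Atp2a2 among the higher (log2 0.27). The share of all tested genes for these markers alone was not computed, so the 5 and 2 are not read as a result.

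Together the 10 genes gave 1.10%, 1.04% and 0.952% of all counts in ISO+L-NAME libraries, against 0.803%, 0.833% and 0.829% in control libraries. These shares did not overlap (exact permutation p = 0.1, two-sided, which is the lowest possible with 3 libraries a group). Of counts outside the mitochondrial genome the shares were 2.02%, 1.99% and 1.81%, against 1.78%, 1.92% and 1.79%, and these overlapped (exact permutation p = 0.2). Atp2a2 and Pln together made up 64.8% to 68.6% of the counts of the 10 genes in ISO+L-NAME libraries and 63.6% to 70.0% in control libraries.

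Ratios of counts within a library do not depend on scaling. Of 14 ratios, each of the other 9 genes over Atp2a2 and 5 over Ryr2, 1 was higher and 5 were lower in ISO+L-NAME hearts without overlap. Of all tested genes, 6.4% were higher and 12.7% lower in this way over Atp2a2. Over Ryr2 these shares were 2.13% and 41.1%, so the pooled count has no single background. No ratio could pass, since 3 against 3 allows no exact permutation p below 0.1. The 6 ratios without overlap each had that p, which became 0.233 after Benjamini-Hochberg adjustment over the 14. Pln per 100 Atp2a2 counts was 78.1, 87.2 and 92.3 in ISO+L-NAME hearts, against 97.4, 101 and 82.1 in control hearts (exact permutation p = 0.4). The ranges overlapped through control 3 alone, as control 1 and control 2 lay above all ISO+L-NAME libraries. With 3 libraries a group, this ratio cannot show that the balance of pump and brake messages was the same.

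Hrc per 100 Atp2a2 counts was 13.3, 16.3 and 14.3 in ISO+L-NAME hearts, against 23.0, 20.4 and 24.7 in control hearts. Dhrs7c per 100 Atp2a2 counts was 0.794, 1.03 and 0.801 in ISO+L-NAME hearts, against 2.66, 2.16 and 2.68 in control hearts. Both were lower without overlap, as was Jph2, while Cacna1c was higher. Ryr2 per 100 Atp2a2 counts was 29.5, 36.4 and 36.5 in ISO+L-NAME hearts, against 25.5, 23.2 and 31.1 in control hearts. These ranges overlapped (exact permutation p = 0.2), as did those of Casq2, Trdn and Slc8a1 over Atp2a2. Over Atp2a2, 12.7% of all tested genes were lower and 6.4% higher without overlap (19.1% in all).

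Ratios to the release channel gave lower values for 2 partners. Trdn per 100 Ryr2 counts was 44.1, 46.6 and 45.6 in ISO+L-NAME hearts, against 70.0, 72.7 and 61.8 in control hearts. Jph2 per 100 Ryr2 counts was 8.67, 6.80 and 7.52 in ISO+L-NAME hearts, against 14.1, 12.4 and 12.2 in control hearts. Neither pair of groups overlapped, but over Ryr2, which itself was higher, 41.1% of all tested genes were lower and 2.13% higher in this way (43.3% in all), so 2 of 5 is close to the background. Casq2, Cacna1c and Slc8a1 over Ryr2 overlapped between groups (exact permutation p = 0.6, 0.6 and 1.0).

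**Figure D4:**
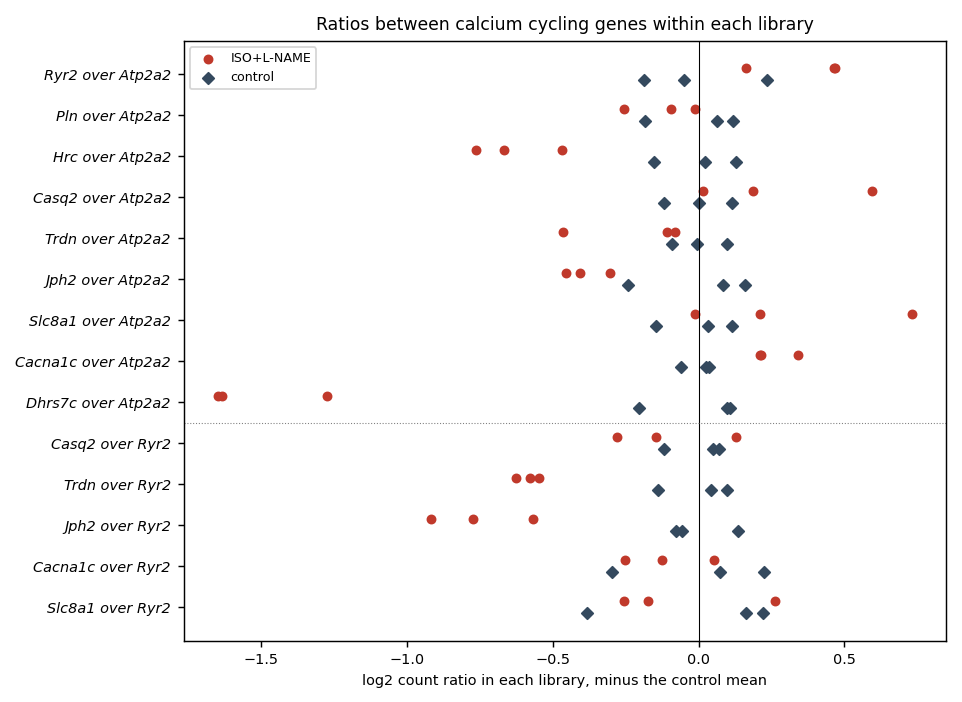
Log2 ratio of 2 genes' counts in each library, minus the control mean, with ISO+L-NAME libraries as red circles and control libraries as dark diamonds. Hrc, Jph2 and Dhrs7c over Atp2a2 and Trdn and Jph2 over Ryr2 lie to the left without overlap, and Cacna1c over Atp2a2 to the right.

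Among other proteins of the reticulum and its junction, 17 of the 23 listed genes found in the table were tested, and 1 was called higher and 2 lower, against 3.41% and 2.68% of all tested genes (median log2 value 0.05, against -0.01 for all genes). Sri, which encodes sorcin, a calcium-binding regulator of the ryanodine receptor, had 41.9, 42.1 and 37.8 CPM in ISO+L-NAME hearts, against 25.8, 23.8 and 26.3 CPM in control hearts. It rose by 0.68 ± 0.15 SE on the log2 scale (edgeR adjusted p = 0.00833), without overlap, although DESeq2 did not call it (adjusted p = 0.0708). Calr, which encodes the luminal calcium-binding chaperone calreticulin, had 116, 94.4 and 102 CPM in ISO+L-NAME hearts, against 140, 156 and 153 CPM in control hearts. Calr was lower without overlap (log2 -0.52 ± 0.12 SE, edgeR adjusted p = 0.00751), a call lost without ISO+L-NAME 2 (0.0680), with total counts (log2 -0.22, 0.225) and with cardiomyocyte markers as library sizes (log2 -0.31, 0.149).

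Ank2 encodes ankyrin-B, which anchors the sodium-calcium exchanger, and changed by -0.51 ± 0.14 SE (edgeR adjusted p = 0.0266). Its call was lost with DESeq2 (adjusted p = 0.162) and when any of control 1 and 2 and ISO+L-NAME 1 and 2 was left out (edgeR adjusted p = 0.0885 to 0.113). It was also lost with total counts (log2 -0.21, edgeR adjusted p = 0.296) and with cardiomyocyte markers as library sizes (log2 -0.30, edgeR adjusted p = 0.223). Strit1, which encodes DWORF, a small activator of the pump, had 85.1, 75.7 and 60.1 CPM in ISO+L-NAME hearts, against 69.7, 79.0 and 55.4 CPM in control hearts (log2 0.12, edgeR adjusted p = 0.754). Sln, which encodes the pump inhibitor sarcolipin, had 1 count in all, in control 3.

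A list of L-type channel partners, which also held the pore genes of other calcium channels, had 3 of 15 genes with enough counts to be tested. Cacna2d1, the extracellular auxiliary subunit, had 98.2, 106 and 97.5 CPM in ISO+L-NAME hearts, against 128, 133 and 149 CPM in control hearts. It was lower without overlap, opposite in sign to the pore gene Cacna1c (log2 -0.44 ± 0.11 SE, edgeR adjusted p = 0.0218). Its call rested on the full set of libraries: it was lost without any 1 library except control 2 (edgeR adjusted p = 0.0516 to 0.0798), with DESeq2 (adjusted p = 0.0544), with total counts (log2 -0.14, 0.426) and with cardiomyocyte markers as library sizes (log2 -0.23, 0.254).

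A further list held 19 tested genes for subunits of kinases and phosphatases, phosphodiesterases and anchoring proteins that act on release and uptake. Of these, 1 was called higher and 0 lower, against 3.41% and 2.68% of all tested genes (median 0.02). Ppp1r3a, which targets protein phosphatase 1 to glycogen and the reticulum, had 50.8, 59.7 and 77.1 CPM in ISO+L-NAME hearts, against 24.5, 50.2 and 32.0 CPM in control hearts. The lowest ISO+L-NAME library and the highest control library were almost level (log2 0.82 ± 0.20 SE, edgeR adjusted p = 0.0152). It did not pass when any of control 1 and 3 and ISO+L-NAME 2 and 3 was left out (edgeR adjusted p = 0.0508 to 0.139), nor in a robust fit (0.0610). Camk2d, the main cardiac calmodulin-dependent kinase gene, had 48.8, 47.2 and 53.2 CPM in ISO+L-NAME hearts, against 68.8, 62.6 and 48.7 CPM in control hearts, with overlap (log2 -0.27, edgeR adjusted p = 0.330). The list of other calcium pumps, release channels and store-operated entry, which also held the channel gene Trpm4, had 11 tested genes. The last list, for mitochondrial calcium handling, had 11. In both, edgeR called 0 in either direction, against 6.1% of all tested genes (medians -0.10 and -0.03).

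**Figure D5:**
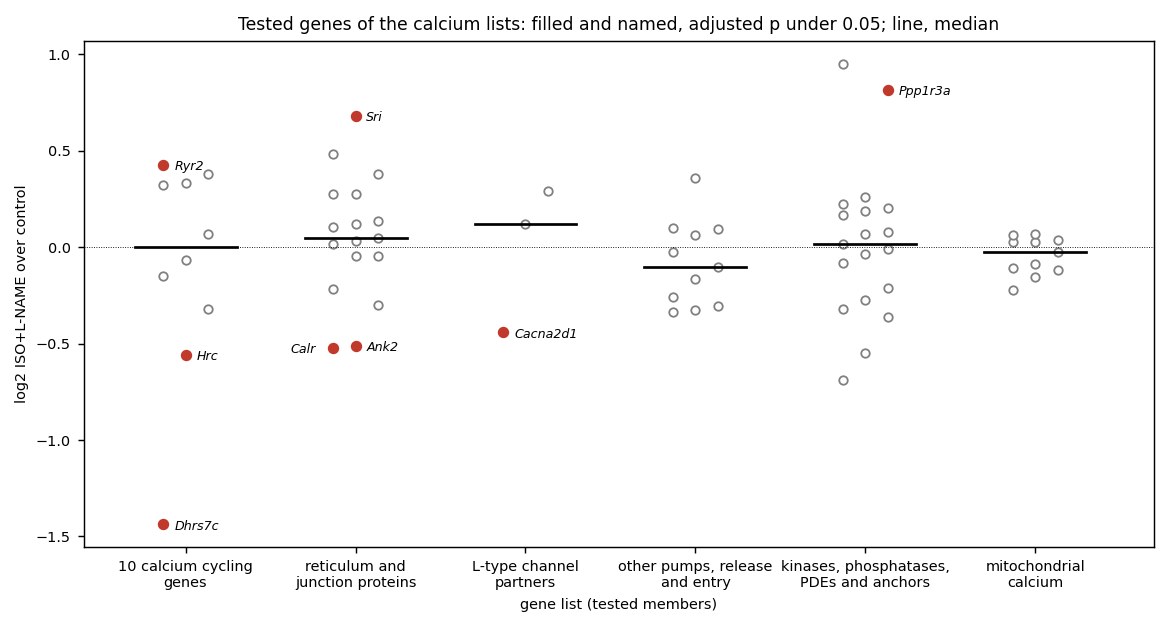
Log2 change of each tested gene in the 10 calcium cycling genes and in 5 other calcium lists (PDEs are phosphodiesterases), filled and named where the edgeR adjusted p is under 0.05, with the median as a line. Medians lie between -0.10 and 0.12, and Dhrs7c at -1.44 is the lowest point.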

How the data were processed

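Heart RNA in 3 ISO+L-NAME and 3 control libraries was read with a QuantSeq 3′ forward kit, per the labels' protocols. Reads were handled with bcl2fastq and the build was GRCm39, per the submitters' processing notes. Not given in the sources used here are how reads were aligned and counted, which annotation was used and whether strand or identifiers of molecules counted. Per the file headers, the authors deposited counts (whole numbers for each gene) and a scaled signal headed CPM. Each signal column is its count column times 1 constant. Its implied library sizes were tried as an alternative, chosen after seeing the data.

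Counts were filtered with filterByExpr (minimum count 10, minimum total 15), scaled by TMM and compared in R 4.3.3 by edgeR 4.0.16's quasi-likelihood test (glmQLFit and glmQLFTest with group as the only term, Benjamini-Hochberg threshold 0.05 over 8531 genes). The SE was derived by dividing the size of the log2 change by the root of its F statistic. Alternatives used other scalings, filters, a robust fit, DESeq2 1.42.0, limma-voom (limma 3.58.1), a block for replicate number, and fits that dropped 1 library at a time. For ratios and shares, two-sided exact permutation tests were used (scipy 1.17.1). Libraries of the same group differed by 2.10 to 3.42 in chi-square per degree of freedom, so none was counted as a duplicate. The labels do not say whether each library came from a different mouse, so p-values measure the spread between these samples. The gene-wise fit was first run on data simulated from these libraries' own levels and spread, with changes placed in both directions. That run could not test the choice of scaling, and its outcome is not used here.

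The members and lists were chosen with earlier results of these data known. Named were all 10 members, up to 4 called genes of each calcium list by smallest p, Sln, Strit1 and Camk2d, the 5 profiles nearest to Dhrs7c and to Atp2a2, and overlapping genes. Of the listed symbols, Arln, Erln, Akap18 and Tmbim5 matched no name in the table.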

Additional observations from a re-analysis of the deposited data

How the results depend on the processing

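The number of tested genes called was 520, against 1459 with total counts alone, 826 with cardiomyocyte markers as library sizes, 309 with DESeq2 and 301 (without control 1) to 496 with 1 library left out. The number of calcium cycling genes called was 3, against 6 with total counts alone, 5 with cardiomyocyte markers as library sizes, 5 without a filter and 2 to 4 with 1 library left out. Without a filter the added calls were Casq2 and Slc8a1 (edgeR adjusted p = 0.0384 and 0.0412). Dhrs7c was called in all 19 fits (log2 -1.57 to -1.14), and Hrc in 17, with the exceptions of total counts and cardiomyocyte markers (log2 -0.65 to -0.26). Ryr2 lost its call in 3 fits without 1 library (log2 0.37 to 0.72 over all fits). The summed share of the 10 genes was higher by 0.32 on the log2 scale, against 0.081 of counts outside the mitochondrial genome and 0.27 to 0.38 with 1 library left out. The number of within-library ratios without overlap was 6, against 6 to 10 with 1 library left out (10 without control 3). The number of genes without overlap per cardiomyocyte marker count was 6, against 6 to 8. Leaving out a library never widens a group's range, so it can only keep or raise these counts of non-overlap. Neither count therefore tests how far the result depends on 1 library. The cause of the other differences was not tested.

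With the replicate number as a block, 560 genes and the same number of calcium cycling genes, 3, were called. Of the 14 ratios, 8 moved one way in all 3 pairs. The share of all tested genes that did so was not computed, so the 8 is not read as a result. Deviations of same-numbered libraries correlated by 0.06, -0.03 and -0.01, so the numbers were not taken to pair the libraries.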
